A study of Mus musculus with 4 samples.

Results

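B cells were examined in omental tumors that grew in C57BL6J mice from KPCA.A, KPCA.B and KPCA.C, 3 syngeneic mouse cancer lines. A barcode with at least 300 genes, at least 500 unique molecular identifiers (UMIs, the counted RNA molecules) and at most 15% mitochondrial UMIs was taken as a B cell when it met 6 conditions on raw UMIs. It had to hold at least 3 UMIs of the B cell receptor signalling chains Cd79a and Cd79b together, at least 1 of the B cell surface protein gene Ms4a1 (CD20) and fewer than 5 of the antibody joining chain gene Jchain. It could hold no UMI of the T cell gene Cd3e, and at most 1 each of the summed macrophage genes C1qa, C1qb and C1qc and of the epithelial keratin gene Krt18. The rule gave 604 B cells among 8332 filtered barcodes of the 3 tumor libraries, with 12 in KPCA.A, 532 in KPCA.B and 60 in KPCA.C. Each tumor library was made from 4 pooled tumors of mice 8 weeks of age. A library of ascites from mice 9 weeks of age held none among 2921 filtered barcodes. The labels call the cells of all libraries fallopian tube epithelial cells and give no treatment, no engineered allele and no statement of how the 3 lines differ. By background knowledge of the name, KPCA lines are fallopian tube epithelial cells engineered with several cancer genes, among them mutant Trp53 and raised Ccne1 and Akt2. Every group is 1 library, so no test between groups was possible, and all intervals below (95%) cover counting error only.

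B cells recognise antigen through surface immunoglobulin, whose signal passes through Cd79a and Cd79b, and they present peptides to T cells on MHC class II. Naive follicular B cells carry both IgM and IgD and the low-affinity IgE receptor Fcer2a (CD23). B-1 cells, which are abundant in the peritoneal cavity and in the lymphoid clusters of the omentum called milky spots, carry much IgM and little IgD or CD23. After activation, B cells can divide, switch from IgM to IgG, IgA or IgE, and become plasma cells.

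Ebf1 and Pax5 specify the B lineage, and the octamer-binding factor Pou2f2 with its co-activator Pou2af1 acts in mature B cells. 2 promoters of B cell marker genes are shown because each holds a letter pattern linked to such a factor, with the pattern in capitals. They are the 250 bases before the start, read 5′ to 3′ on the gene's strand, from RefSeq's GRCm38.p6 annotation. The octamer ATGCAAAT was searched on both strands, and so was CCCNNGGG, the core letters of the EBF1 pattern.
Vpreb3, chr10:75948050-75948299, plus strand: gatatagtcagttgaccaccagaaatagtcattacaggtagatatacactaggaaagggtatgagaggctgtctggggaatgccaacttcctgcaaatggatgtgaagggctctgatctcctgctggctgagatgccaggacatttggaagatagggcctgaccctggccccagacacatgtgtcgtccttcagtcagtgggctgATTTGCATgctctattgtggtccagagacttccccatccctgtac
Cd22, chr7:30879029-30879278, minus strand: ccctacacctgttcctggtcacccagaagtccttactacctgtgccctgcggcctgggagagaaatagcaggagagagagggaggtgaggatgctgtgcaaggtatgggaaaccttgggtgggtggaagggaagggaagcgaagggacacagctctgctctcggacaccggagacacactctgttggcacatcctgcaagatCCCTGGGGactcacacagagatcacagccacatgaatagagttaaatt
The first capital lies 45 bases before the start in Vpreb3, where the octamer is read on the opposite strand, and 48 bases before it in Cd22. Of the 18 B cell marker genes, 12 were matched, with 15 promoters. The octamer was found in 1 of those 12 genes, Vpreb3, and in 1.60% of all 32851 promoters. CCCNNGGG was found in 3 of them, Bank1, Cd22 and Spib, and in 11.8% of all promoters. A match describes the letters and is not a binding site. Vpreb3, a surrogate light chain relative, stood at 98.6 CPM (UMIs of the gene per 1000000 UMIs of all genes, summed over the B cells of a library) in KPCA.A, 346 in KPCA.B and 426 in KPCA.C. Cd22, an inhibitory B cell co-receptor, stood at 247, 398 and 344 CPM. T cells of KPCA.B held no UMI of either gene.

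The tumor libraries held 40054369 to 95130645 UMIs in 3358 to 5703 barcodes, against 5000 cells stated in the labels. The mitochondrial limit removed 53.1% of the barcodes of KPCA.A, 22.5% of KPCA.B and 24.3% of KPCA.C. B cells had a median of 2487 UMIs in KPCA.A, 3287 in KPCA.B and 4208 in KPCA.C. No barcode was a B cell in more than 1 library, and the filtered barcodes of KPCA.A and KPCA.B shared 2 that were B cells in 1 of them, those of KPCA.B and KPCA.C 1. Scrublet, a doublet caller, marked at most 0.271% of the filtered barcodes and no B cell, so it had not worked, and no doublet was removed. At the edge of the rule, 26 B cells had 1 Ms4a1 UMI and 17 barcodes failed only by having 0, while 8 had a Cd79a and Cd79b sum of 3 and 6 failed with 2. For the C1q genes, 128 B cells held 1 UMI and 27 barcodes failed with 2.

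B cells were the commonest in the KPCA.B tumor. They were 0.453% of filtered barcodes in KPCA.A (exact binomial interval 0.234 to 0.790), 20.6% in KPCA.B (19.0 to 22.2) and 1.94% in KPCA.C (1.48 to 2.49). Among barcodes with a UMI of Ptprc, the leukocyte gene for CD45, they were 0.971%, 27.1% and 3.92%. The 3 intervals did not overlap on either denominator, though 1 library a tumor type gives no measure of the spread between tumors. In ascites, 0 of 2921 barcodes allows a share of up to 0.103% at 3 counts, and the exact interval reaches 0.126%. Filtered barcodes had a median of 2077 UMIs there, against 7910, 7958 and 14660 in KPCA.A, KPCA.B and KPCA.C. A rule on raw UMIs is harder to meet at lower depth. The limits therefore hold for barcodes that meet the rule, not for all B cells of ascites.

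**Figure D1:**
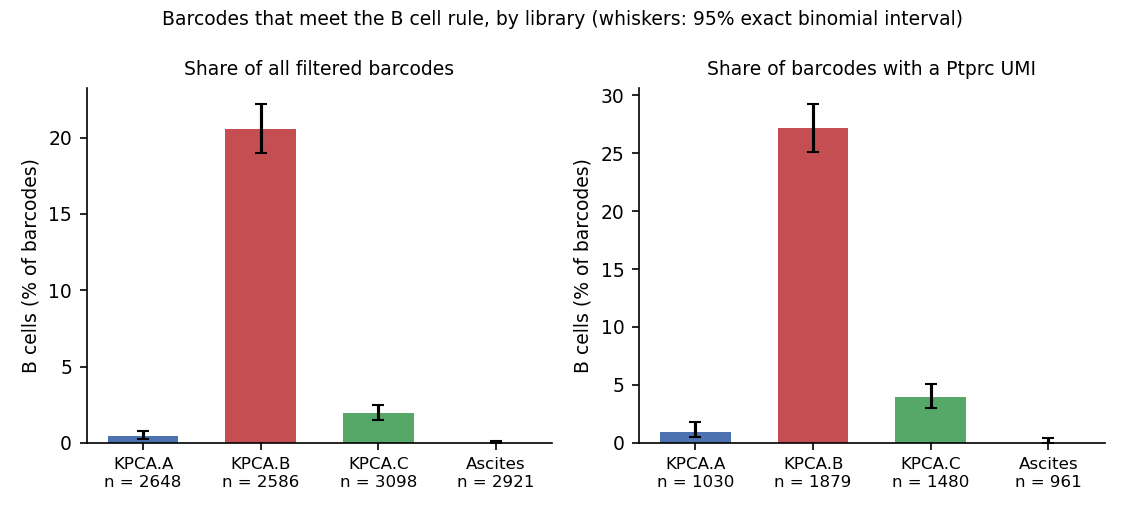
Share of barcodes that met the B cell rule in each library, of all filtered barcodes (left) and of barcodes with a Ptprc UMI (right), with 95% exact binomial intervals as whiskers. KPCA.B stands at 20.6% and 27.1%, above KPCA.C at 1.94% and 3.92% and KPCA.A at 0.453% and 0.971%.

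The cells carried the genes that define B cells and that the rule had not used. Pax5, the factor that holds B cell identity, was at 789 CPM in KPCA.A, 490 in KPCA.B and 380 in KPCA.C, and at 0.149 CPM in the highest other class of KPCA.B, tumor cells. Ighd, the IgD heavy chain constant gene, was at 469, 888 and 750 CPM, against 4.62 CPM in T cells of KPCA.B. Fcer2a was at 123, 399 and 122 CPM, against 1.16 CPM in those T cells. All 3 genes were therefore present in each library, with Fcer2a near the same level in KPCA.A and KPCA.C and higher in KPCA.B. The classes set beside the B cells were gated on raw UMIs as T cells, plasma cells, macrophages and tumor epithelial cells.

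The 15 genes with the largest ratio of KPCA.B B cells to the highest other class of that library included Bcl11a, Pax5, Bank1, Fcer2a, Siglecg, Ebf1, Cr2, Gm31243, Spib, Cd22, Fcmr, H2-Ob, H2-DMb2 and H2-Eb2. Bcl11a, a lymphoid transcription factor, led at 1005 CPM against 4.24 in macrophages. Bank1, an adaptor that tunes receptor signalling, stood at 1178 against 7.68 CPM, also in macrophages. Ebf1, at 994 CPM, had its next level in plasma cells at 17.1 CPM. Fcmr, the receptor for IgM, stood at 426 against 9.78 CPM in plasma cells. H2-Ob and H2-DMb2 belong to the chaperones that edit peptide loading on MHC class II, and H2-Eb2 encodes a class II beta chain. In KPCA.C, these 14 were also above the KPCA.B levels of every other class, from Fcer2a at 122 CPM to Ebf1 at 1226. In KPCA.A, Cr2, the complement receptor CD21, was at 0 in 12 cells, with an exact Poisson interval up to 91.0 CPM. The other 13 were between 74.0 CPM for Gm31243 and 986 for Bank1. These ratios compare cells chosen by Cd79a, Cd79b and Ms4a1 with cells chosen to lack such genes and are given with no test.

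**Figure D2:**
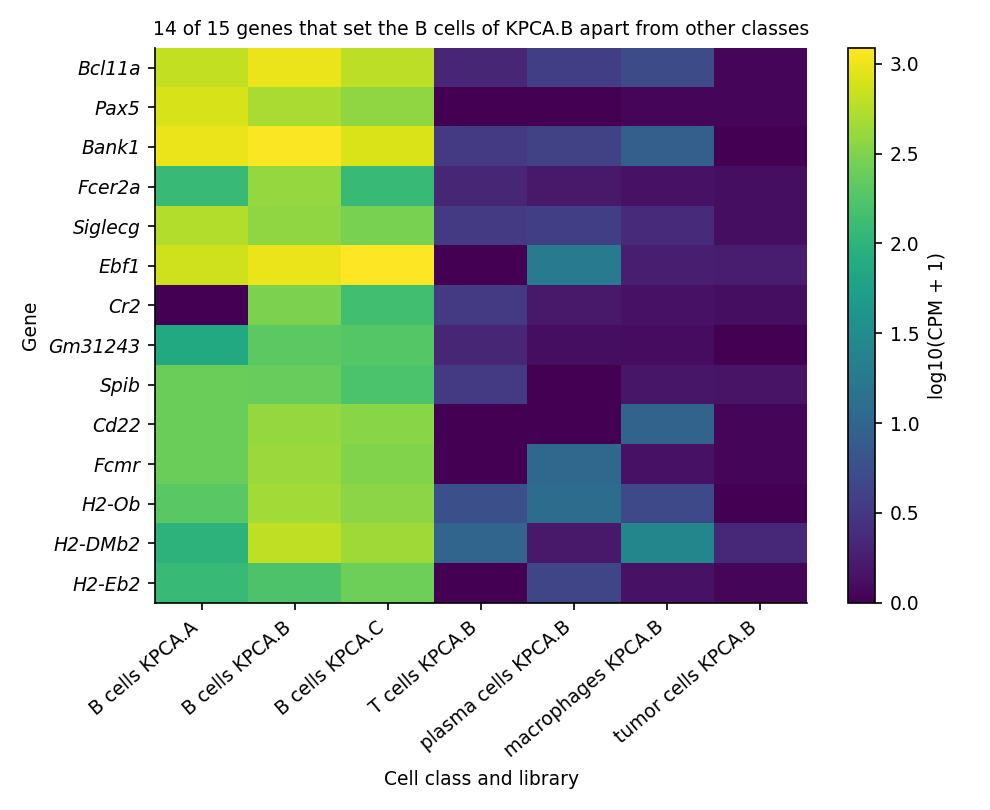
Levels of 14 of the 15 genes as log10(CPM + 1), rows being genes and columns being B cells of the 3 tumor libraries and 4 other classes of KPCA.B. Pax5 stands between 380 and 789 CPM in B cells and at or under 0.149 CPM in the other classes, and Cr2 is at 0 in the 12 cells of KPCA.A.

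Markers of other cell types were low in the B cells but not absent. The 19 T cell and cytotoxic genes summed to 119 to 188 CPM in B cells, against 7415 to 9973 in T cells of the same libraries. The 14 macrophage genes summed to 1159 CPM in B cells of KPCA.A, 438 in KPCA.B and 1338 in KPCA.C, against 29220 to 30873 in macrophages. Of these, 7, 0 and 1 were at 0 in KPCA.A, KPCA.B and KPCA.C. Among them, Spp1, the osteopontin gene, stood at 222, 9.67 and 469 CPM and Apoe, a lipid carrier gene, at 764, 185 and 562. The 11 epithelial genes summed to 41.3 to 197 CPM, against 3445 to 7128 in tumor cells. These lists hold Cd3e, the C1q genes and Krt18, which the B cell rule and the gates of the other classes used. Part of each contrast was therefore fixed in advance. Digestive enzyme genes of the pancreas, 16 genes chosen after their values were seen, summed to 5450, 2505 and 1771 CPM in B cells and to 9548, 2368 and 1473 in T cells, so both classes carried them at like levels within KPCA.B and within KPCA.C. The part of free RNA in any single result below was not tested.

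Clustering of the 604 cells on variable genes, with immunoglobulin, ribosomal and mitochondrial genes left out, gave 5 groups. The genes that define them are described without a test, because the clustering used them. Clusters 0 and 1, with 198 and 196 cells, had Fcer2a at 559 and 438 CPM and Cr2 at 476 and 294. Cluster 0 was led by pancreatic enzyme genes such as Cela1, an elastase, at 736 against 245 CPM in the other B cells, and its cells had the lowest median depth, 2489 UMIs. Cluster 1 was led by Ifi213, an interferon-inducible gene, at 41.8 against 9.60 CPM and held Slfn5, a Schlafen gene, at 95.7 against 32.0. Neither had a gene of a B cell subset list among its 10 leading genes, and both were left unnamed. Of the 8 measured B-1 genes, 0 were over 2-fold higher and 7 lower than in the other B cells in each of the 2 clusters. Over all genes, 0.702% were higher and 2.36% lower in cluster 0, and 0.552% and 2.16% in cluster 1. They split the libraries: cluster 0 held 7 of 12 cells of KPCA.A, 190 of 532 of KPCA.B and 1 of 60 of KPCA.C, and cluster 1 held 0, 156 and 40.

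Cluster 2, with 100 cells, was called B-1-like because its mean log2 ratio to the other B cells over the B-1 list was the highest. The counts of that list below describe this choice and are no test of it. With the libraries pooled, 7 of 8 measured B-1 genes were over 2-fold higher than in the other B cells, where 1.57% of 5983 genes were. Of the 100 cells, 81 came from KPCA.B. Bhlhe41, a transcription factor needed for B-1a cells, stood at 117 against 11.4 CPM, and Zbtb32, a transcriptional repressor, at 86.2 against 7.24. Zcwpw1 stood at 131 against 9.83 CPM and Ahnak, a large scaffold protein, at 507 against 74.5. KPCA.A gave 33 of the 90 Zcwpw1 UMIs of the cluster. Within KPCA.C, on few UMIs, Bhlhe41 stood at 82.5 against 9.73 CPM and Ahnak at 134 against 53.5. Zbtb32, Spn and Bhlhe40, of the B-1 list, were lower there, at 10.3 against 29.2, 20.6 against 43.8 and 41.3 against 126. Ptpn22 (289 against 233) and Sox5 (20.6 against 19.5) lay close, and Zcwpw1 was at 0 in both. Outside that list, Fcrl5, an Fc receptor-like protein of innate-type B cells, stood at 235 against 14.5 CPM. S100a6, a calcium-binding protein, stood at 1417 against 118 and the kinase Pim1 at 890 against 123. Cd5, which marks the B-1a subset, was at 0 UMIs in the cluster, so B-1a and B-1b could not be told apart. Lyz2, a lysozyme gene of macrophages, was among its 10 leading genes at 263 against 21.2 CPM, while the macrophage genes Csf1r and Adgre1 stood at 4.38 and 10.2 CPM. Its cells were deep, with a median of 6092 UMIs.

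Of 9 follicular genes, 3 were over 2-fold lower there, where 3.18% of genes were. They were Ighd, Fcer2a, at 49.7 CPM, and Fcmr, at 225. The migration genes Klf2 and S1pr1 stood at 769 and 279 CPM, the highest of the 5 clusters, and Cxcr5 at 105 lay within their range. Cr2, of the marginal zone list, stood at 78.9. Ciita, the master regulator of MHC class II, stood at 218 CPM, against 563 and 633 in clusters 0 and 1. Cd74, the class II invariant chain, stood at 9257, against 14658 and 13353. Cluster 2 held 5 of 12 B cells of KPCA.A (41.7%, 15.2 to 72.3), 81 of 532 of KPCA.B (15.2%, 12.3 to 18.6) and 14 of 60 of KPCA.C (23.3%, 13.4 to 36.0). The intervals overlapped, and the share in KPCA.C moved to 56.4% with a stricter B cell rule and to 13.3% at a finer clustering, so no order of the libraries can be read.

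Immunoglobulin genes took no part in the clustering. Ighd was lower in cluster 2 than in the other B cells of every library, and it was also low in cluster 4, at 207 CPM. Ighd was at 36.8 CPM (exact Poisson interval 0.931 to 205) in its KPCA.A cells and at 1349 (799 to 2132) in the other B cells of that library. In KPCA.B the levels were 266 (225 to 312) and 1092 (1043 to 1143). In KPCA.C they were 402 (286 to 550) and 914 (788 to 1055). The intervals did not overlap in 3 of 3 libraries. Ighm, the IgM constant gene, was at 9336 against 4196 CPM in KPCA.A and at 6295 against 4262 in KPCA.B, and at 4312 against 4201 in KPCA.C, where the intervals overlapped. Within KPCA.B, 23.7 Ighm UMIs were counted for each Ighd UMI in cluster 2, against 3.90 in cluster 0, 3.30 in cluster 1, 4.28 in cluster 3 and 13.8 in cluster 4. Of the 100 cells of cluster 2, 36 held Ighm without Ighd (36.0%, 26.6 to 46.2), against 11 of 196 in cluster 1 (5.61%, 2.83 to 9.82) and 9 of 17 in cluster 4 (52.9%, 27.8 to 77.0). Clusters 2 and 4 were the deepest. T cells of KPCA.B held 863 CPM of Ighm and 4.62 of Ighd.

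**Figure D3:**
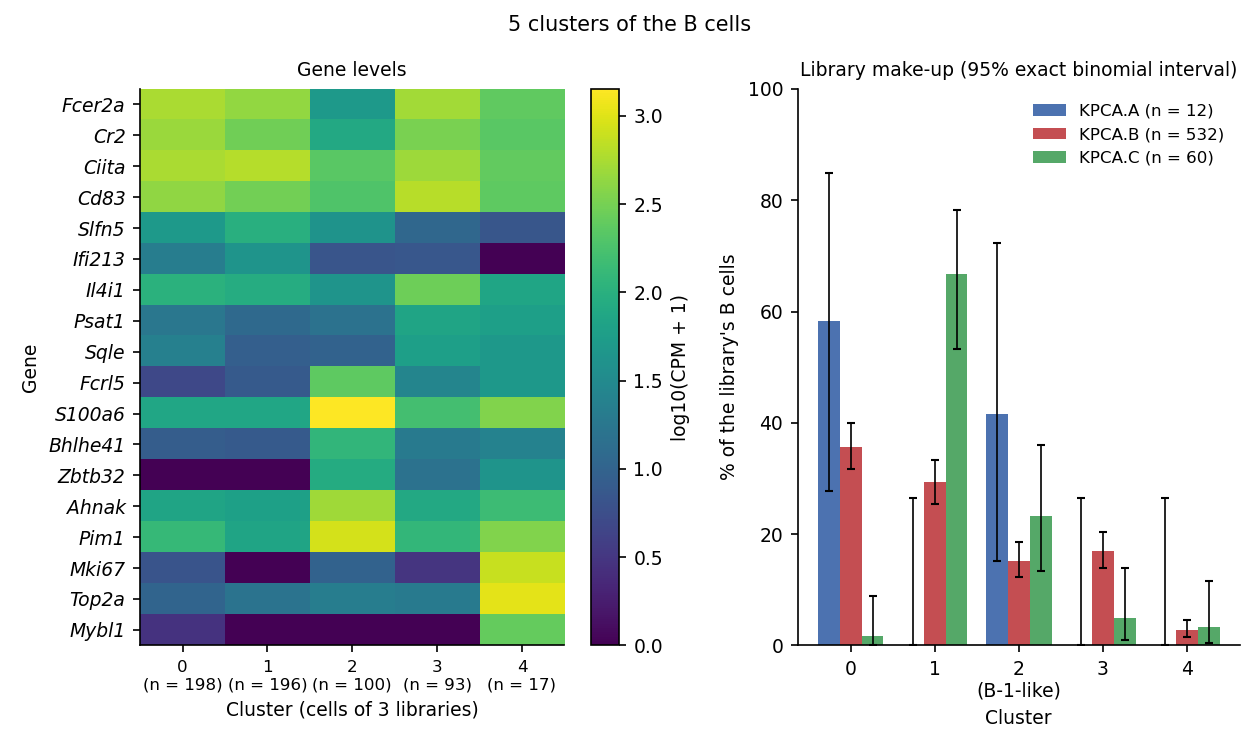
Left, levels of 18 genes in the 5 clusters as log10(CPM + 1). Right, the share of each library's B cells in each cluster, with 95% exact binomial intervals as whiskers. Cluster 1 holds 66.7% of KPCA.C and 29.3% of KPCA.B, and the proliferation genes Mki67 and Top2a stand out in cluster 4.

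**Figure D4:**
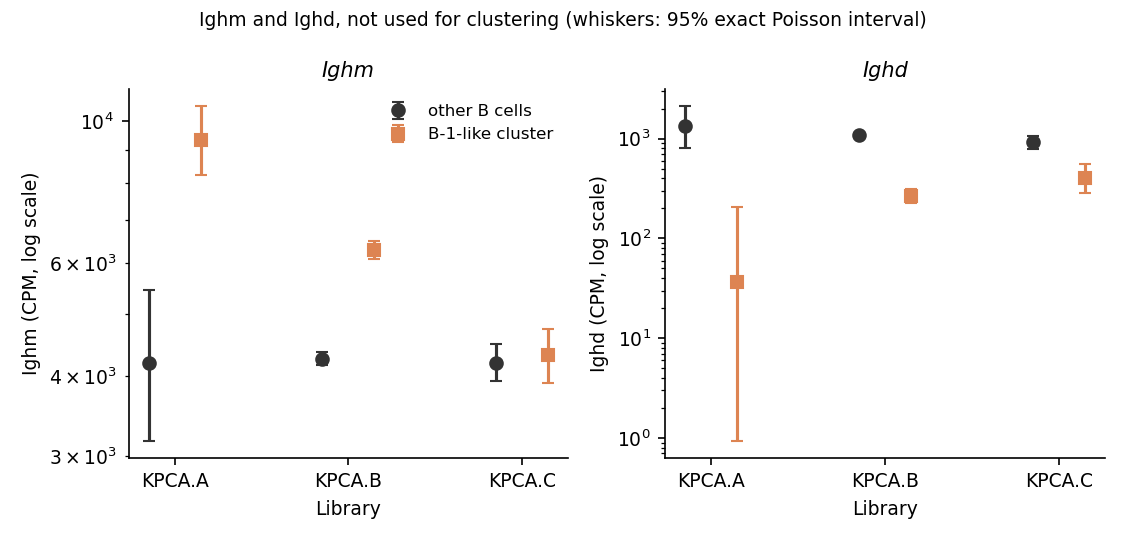
Ighm and Ighd in CPM on log scales, in B-1-like cells (squares) and other B cells (circles) of each library, with 95% exact Poisson intervals. Ighd is lower in the B-1-like cells of all 3 libraries, and Ighm is higher in KPCA.A and KPCA.B but not in KPCA.C.

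Cluster 3, with 93 cells of which 90 came from KPCA.B, stayed unnamed, and its leading genes included Il4i1, 1 gene of the symbol Snhg4, Psat1, Rrp1b, Noc3l, Sqle, Gpatch4, Marcksl1, Idi1 and Rrp9. Il4i1, an amino acid oxidase induced in activated B cells, stood at 285 against 75.2 CPM in the other B cells. Psat1, of serine synthesis, stood at 69.3 against 17.4. Sqle and Idi1, of cholesterol synthesis, stood at 59.1 against 15.05 and 53.0 against 13.6. Rrp1b and Rrp9, of ribosome assembly, stood at 50.9 against 12.2 and 57.0 against 15.5. Of the 8 B-1 genes, 0 were over 2-fold higher there and 4 lower, against 1.74% and 3.63% of all genes. Cd83, an activation marker, stood at 658 CPM, the highest of the 5 clusters. Ighd there was at 866 CPM and Fcer2a at 515.

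Cluster 4 held 17 dividing cells, 15 from KPCA.B and 2 from KPCA.C. Mki67, a proliferation marker, stood at 776 against 4.08 CPM and Top2a, the mitotic topoisomerase, at 1066 against 15.9. Over all genes, 5.83% were over 2-fold higher and 9.21% lower there, and 5 of 9 follicular genes were lower. Of 2 germinal center genes with enough UMIs, 0 passed 2-fold: Bcl6, the master repressor of that state, stood at 82.9 CPM, against 69.6 and 71.4 in clusters 0 and 1, and Gna13 at 178, against 143 and 141. Of that list's genes with fewer UMIs, Mybl1 stood at 255 CPM, the retention receptor S1pr2 at 112, Mef2b at 94.7, Neil1 at 65.1, Rgs13 at 41.4, Fas at 23.7 and Gcsam at 5.92. Mybl1 was at or under 1.88 CPM in each other cluster. The highest levels in any other cluster were 4.07 for S1pr2, 20.4 for Mef2b, 12.2 for Neil1, 2.04 for Rgs13, 7.53 for Fas and 0 for Gcsam. The whole list summed to 1007 CPM in cluster 4, against 206 in the other B cells. The cluster had 2 genes of the germinal center list among its 50 leading genes and stayed unnamed. Of the immunoglobulin genes, Ighg1 stood at 545 CPM and at 47.0 to 65.7 in the other clusters. Switched heavy chain UMIs outnumbered those of Ighm and Ighd together in 6 of its 17 cells (35.3%, 14.2 to 61.7). The same held for 0 of 198 cells of cluster 0, 0 of 196 of cluster 1, 2 of 100 of cluster 2 and 1 of 93 of cluster 3.

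Over all B cells, IgM and IgD were the main heavy chains. Switched UMIs outnumbered Ighm and Ighd in 8 of 532 cells of KPCA.B (1.504%, 0.651 to 2.94), in 1 of 60 of KPCA.C (1.67%, 0.0422 to 8.94) and in 0 of 12 of KPCA.A. At least 1 switched UMI was seen in 25.8% of KPCA.B cells and 6.67% of KPCA.C cells. T cells differed in the same way: an Ighg1 UMI was seen in 15.2% of B cells and 14.2% of T cells of KPCA.B (median depths 3287 and 3844 UMIs), and in 3.33% and 2.67% in KPCA.C (4208 and 5058 UMIs). The shares of B cells with an Ighg1 UMI were thus close to those of T cells, and no switching is read from them. In KPCA.C, 31 Ighg1 UMIs lay in 2 cells, of which 1 held 26.

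Light chain calls rested on the limit chosen. A cell was called kappa where Igkc made at least 80% of its Igkc, Iglc1, Iglc2 and Iglc3 UMIs, and lambda where it made at most 20%. Kappa cells were 8 of 12 in KPCA.A, 427 of 532 in KPCA.B and 32 of 60 in KPCA.C. Lambda cells were 2, 8 and 2. The others had both, 2 in KPCA.A, 97 in KPCA.B (18.2%, 15.04 to 21.8) and 26 in KPCA.C (43.3%, 30.6 to 56.8). Igkc stood at 1383 CPM in T cells of KPCA.B and 169 in those of KPCA.C, and the part of free RNA in the kappa calls was not tested. With limits of 90% and 10% the shares with both were 61.1% in KPCA.B and 73.3% in KPCA.C. With every cell thinned to 1500 UMIs they were 22.5% and 30.0%. Over all B cells, Iglc2 was seen in 69.9% of B cells and 1.09% of T cells of KPCA.B, and in 85.0% and 0.667% in KPCA.C. Iglc1 was seen in 41.2% and 12.6% in KPCA.B, and in 31.7% and 0% in KPCA.C. A kappa cell of KPCA.B held a median of 3 lambda UMIs.

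Variable segment genes were rarely counted. Reads of the kit come from the 3′ ends of transcripts, and the part of this in the low counts was not tested. An Ighv UMI was seen in 83 of 604 cells, spread over 46 Ighv genes, and an Igkv UMI in 100 cells over 44 Igkv genes. The commonest heavy chain segment, Ighv3-6, was seen in 6 cells. Igkv1-110 was seen in 13 cells, of which 6 were in cluster 2. No segment was seen in more cells than that.

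B cells of KPCA.B and KPCA.C could be compared gene by gene, while the 12 cells of KPCA.A are given beside. Of 5931 genes with at least 50 UMIs in both libraries together, 219 (3.69%) were over 2-fold higher in KPCA.B with 5 CPM added to each level, and 109 (1.84%) were over 2-fold higher in KPCA.C. Together they were 5.53% of the genes. The median log2 ratio of all genes was 0.04. The B cells held 2274640 UMIs in KPCA.B and 302593 in KPCA.C, so a gene near the limit of 50 UMIs rested on few UMIs in KPCA.C. With 20 CPM added the counts were 38 and 42, without the excess in KPCA.B. The part of counting error in these calls was not tested. None of these differences has a replicate check. The B cells of KPCA.B lay mostly in clusters 0 and 1, and those of KPCA.C in cluster 1. A difference in the mix of cells between the libraries cannot be told apart from a difference within a cell.

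Fcer2a was among the genes higher in KPCA.B. It stood at 123 CPM in KPCA.A (40.0 to 288), 399 in KPCA.B (373 to 426) and 122 in KPCA.C (86.1 to 169). The level in KPCA.B was 3.26-fold that in KPCA.C (exact interval 2.35 to 4.66). At 1500 UMIs a cell, 41.3% of 521 cells of KPCA.B (37.0 to 45.6) and 20% of 60 of KPCA.C (10.8 to 32.3) held an Fcer2a UMI, and 62.6% and 33.3% without thinning. The thinning left out 11 cells of KPCA.B, 0 of KPCA.C and 2 of KPCA.A. Within cluster 1, a setting chosen after seeing the data, the levels were 504 and 183 CPM, a ratio of 2.76 (1.87 to 4.22). The cluster was formed from the same data, so this ratio is no check on the mix of cells. T cells of KPCA.B and KPCA.C held 1 Fcer2a UMI in all. Fcer2a lies at chr8:3681737-3694175 on the minus strand (GENCODE vM21, GRCm38). Ighd, the other naive marker, was seen in 70.1% and 68.3% of thinned cells.

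Cxcr4 was among the genes higher in KPCA.C. This receptor for Cxcl12, which holds B cells in marrow and in the dark zone of germinal centers, stood at 173 CPM in KPCA.A (69.4 to 356), 96.7 in KPCA.B (84.4 to 110) and 423 in KPCA.C (353 to 503). KPCA.C was 4.37-fold above KPCA.B (3.49 to 5.46). Thinned cells held a Cxcr4 UMI in 15.9% of KPCA.B (12.9 to 19.4) and 51.7% of KPCA.C (38.4 to 64.8), and 30.5% and 75.0% without thinning. Within cluster 1, where Cxcr4 was itself among the 25 leading genes, the levels were 141 and 542 CPM, a ratio of 3.84 (2.80 to 5.28). Other classes differed the same way, T cells from 69.4 to 128 CPM and macrophages from 8.08 to 48.2. Cxcr4 lies at chr1:128588199-128592293 on the minus strand.

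The other genes named by size in KPCA.B were Cbfa2t3, Snrpd3, Mcm5, Lars2, Lrch4, Tlr1, Gm42418, Slc16a6, AB124611, Rapgef1 and Rapgef4. Cbfa2t3, a transcriptional corepressor, stood at 395, 168 and 43.0 CPM in KPCA.A, KPCA.B and KPCA.C, so that KPCA.C was the lowest. Its level in macrophages also differed, at 194 and 59.8 CPM in KPCA.B and KPCA.C. Tlr1, a receptor for bacterial lipopeptides, stood at 0, 50.6 and 16.5 CPM, and Rapgef4, an exchange factor activated by cyclic AMP, at 24.7, 56.7 and 19.8. Gm42418, which overlaps ribosomal RNA sequence, stood at 30825, 31998 and 12429 CPM. Lars2, the mitochondrial leucyl-tRNA synthetase, stood at 567, 813 and 284. Both differed in T cells too, Gm42418 at 33896 and 8465 CPM and Lars2 at 874 and 305 in KPCA.B and KPCA.C.

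The other genes named by size in KPCA.C included Ccl22, Hist1h2ap, Gm10076, Trio, Zfp36l2, Pik3ip1, Hist1h2ae, Prxl2c, Snhg8 and Zfp36. A single dividing cell of KPCA.C with 22459 UMIs held 28 of the 28 Ccl22 UMIs, 68 of the 76 of Hist1h2ap and 29 of the 30 of Hist1h2ae. Without it the log2 ratio of KPCA.B to KPCA.C turned to 0.24 for Hist1h2ap and 1.95 for Hist1h2ae. Zfp36l2, which destabilises messages and slows the cell cycle, stood at 616, 171 and 734 CPM in KPCA.A, KPCA.B and KPCA.C. Its relative Zfp36 stood at 173, 69.0 and 212. Pik3ip1, an inhibitor of phosphoinositide 3-kinase, stood at 98.6, 47.0 and 162 CPM. KPCA.B was thus the lowest of the 3 libraries for each of these genes. T cells of KPCA.B and KPCA.C differed the same way, at 505 and 1091 CPM for Zfp36l2, 43.9 and 97.3 for Zfp36 and 38.2 and 89.9 for Pik3ip1. Gm10076, a ribosomal-type gene model, stood at 493, 243 and 1061 CPM in B cells of the 3 libraries and differed by 4.25-fold in T cells. Trio, a guanine nucleotide exchange factor, stood at 98.6, 16.3 and 85.9 CPM in B cells of the 3 libraries.

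**Figure D5:**
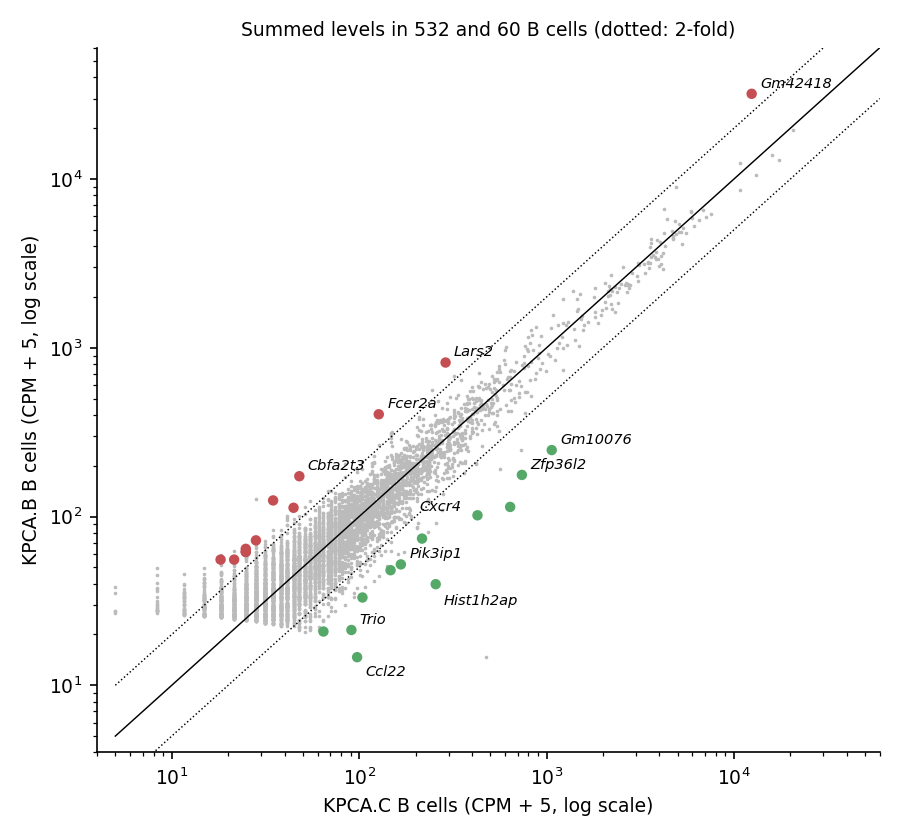
Summed levels of 5931 genes in B cells of KPCA.C (horizontal) and KPCA.B (vertical) as CPM + 5 on log axes, with dotted lines at 2-fold. Genes named by size are red where higher in KPCA.B and green where higher in KPCA.C. Fcer2a lies at 399 against 122 CPM and Cxcr4 at 96.7 against 423, while Hist1h2ap and Ccl22 rest on 1 cell.

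Antigen receptor and lineage genes passed 2-fold at shares no higher than the 5.53% of all genes. Of 25 co-receptor and signalling genes, 1 was over 2-fold higher in KPCA.B and 0 in KPCA.C, with a median log2 ratio of 0.18. That gene was Cr2, at 0, 299 and 142 CPM in KPCA.A, KPCA.B and KPCA.C, with thinned shares of 33.6% and 23.3% in the last pair. Of 20 measured lineage factors, 0 passed 2-fold, with a median of 0.28. Bcl11a stood at 641, 1005 and 605 CPM. Mef2c, needed for receptor-driven growth, stood at 838, 1313 and 1058.

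MHC class II genes were high in all 3 libraries, and 0 of 12 passed 2-fold, with a median log2 ratio of 0.23. Cd74 stood at 8730, 12504 and 10787 CPM and H2-Aa, a class II alpha chain, at 2417, 3161 and 3057 in KPCA.A, KPCA.B and KPCA.C. Macrophages of the same libraries stood at 11292, 10007 and 6497 CPM for Cd74 and 4017, 3212 and 2125 for H2-Aa. For both genes, B cells were below macrophages in KPCA.A and above them in KPCA.C. MHC class I genes leaned the other way, with 12 of 15 lower in KPCA.B, 1 past 2-fold and a median of -0.47. Among all 5931 genes, 2781 were lower and 1.84% were over 2-fold lower. The class I median was -0.12 with cells thinned to 1500 UMIs and -0.29 without the deepest cell of KPCA.C. The class I gene past 2-fold, H2-T23, a nonclassical molecule, stood at 173, 76.5 and 228 CPM. B2m, the shared light chain, stood at 1406, 1013 and 1477. T cells and macrophages had class I medians of -0.17 and -0.27.

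Hypoxia and glycolysis genes stood lower in the B cells of KPCA.B, with those of KPCA.C as the reference. Of 10 measured hypoxia response genes, 10 were lower and 2 passed 2-fold, with a median log2 ratio of -0.61. Of all 5931 genes, 2781 were lower, 1.84% were over 2-fold lower and the median was 0.04. The hypoxia median was -0.34 without the deepest cell of KPCA.C and -0.14 without clusters 2 and 4. Kdm3a, a histone demethylase induced by low oxygen, stood at 98.6, 22.4 and 69.4 CPM in KPCA.A, KPCA.B and KPCA.C. Pgk1, of glycolysis, stood at 123, 131 and 274, where 18 of 83 UMIs in KPCA.C came from that cell. Of 13 glycolysis genes, 12 were lower and 3 passed 2-fold, with a median of -0.48 that was -0.30 without the deepest cell. The hypoxia genes were lower in the same direction in T cells, 14 of 14 with a median of -1.05, and in macrophages, 19 of 19 with a median of -1.61. Glycolysis medians there were -1.01 and -0.53. The difference was therefore measured in all 3 classes of these libraries.

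Stress and activation lists differed in both directions. Over all 5931 genes, 3.69% passed 2-fold towards KPCA.B and 1.84% towards KPCA.C. Of 17 dissociation stress genes, 2 passed 2-fold towards KPCA.B and 4 towards KPCA.C, with a median log2 ratio of 0.12. Hspa1b, a heat shock protein, stood at 0, 30.3 and 0 CPM in KPCA.A, KPCA.B and KPCA.C. Socs3, an inhibitor of cytokine signalling, stood at 98.6, 28.1 and 89.2. The medians of this list were -0.27 in T cells and -1.20 in macrophages, and its median in B cells ran from -0.43 to 0.15 over the alternatives. Of 19 unfolded protein response genes, 0 passed 2-fold, with a median of 0.41 that ran from 0.11 to 0.53 over the alternatives. Of 13 immediate early genes, 1 passed 2-fold towards KPCA.B and 2 towards KPCA.C, with a median of -0.26 that became 0.01 without the deep cell. Egr1, induced by receptor signals, stood at 0, 57.6 and 132 CPM, and Junb at 173, 259 and 449. Of 9 measured type I interferon genes, 0 and 1 passed, with a median of -0.12. Ly6e, an interferon-inducible surface protein, stood at 1923, 2000 and 1778 CPM. Macrophages of these libraries differed in immediate early genes with a median of -0.89.

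Among 15 measured homing and positioning receptors, Itgb7 passed 2-fold towards KPCA.B and Cxcr4 towards KPCA.C, with a list median of -0.09. Itgb7, the integrin beta chain of gut homing, stood at 74.0, 119 and 49.6 CPM in KPCA.A, KPCA.B and KPCA.C. Cxcr5, the receptor that brings B cells to follicles, stood at 24.7 CPM in KPCA.A, 111 in KPCA.B and 85.9 in KPCA.C. Ccr7, which draws lymphocytes towards T cell zones, stood at 24.7, 98.9 and 169. The survival receptor Tnfrsf13c, which binds BAFF, stood at 173, 494 and 377. Its relative Tnfrsf13b stood at 123, 225 and 152. Of 9 measured survival genes, 1 passed 2-fold, Cd40, the receptor for T cell help, at 24.7, 47.0 and 16.5 CPM. It rested on few cells: a UMI was seen in 16.9% of KPCA.B cells (13.8 to 20.4) and 8.33% of KPCA.C cells (2.76 to 18.4). For both lists, the shares of all genes past 2-fold were 3.69% towards KPCA.B and 1.84% towards KPCA.C.

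The matching ligands were measured in all other filtered cells of each tumor. Cxcl13, the ligand of Cxcr5, stood at 30.1 CPM in KPCA.A (28.6 to 31.8), 116 in KPCA.B (112 to 119) and 15.4 in KPCA.C (14.6 to 16.2). A UMI of it was seen in 73, 80 and 75 cells, so the level rested on few cells in each library. Ccl19, a ligand of Ccr7 whose symbol 2 annotated genes share, stood at 0.592, 0.892 and 1.96 CPM. Cxcl12, the ligand of Cxcr4, stood at 21.4, 18.6 and 20.6 CPM. Tnfsf13b, which encodes BAFF, stood at 3.80, 3.596 and 3.46. Tnfsf13, which encodes the related factor APRIL, stood at 16.8, 36.7 and 18.9. Lta, a lymphotoxin chain, was counted in the B cells themselves at 0, 31.2 and 3.30 CPM, the last being 1 UMI, and Ltb, its partner, at 345, 583 and 479.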

How the data were processed

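Deposited UMI counts per gene and barcode, which the authors made with Cell Ranger, were used unchanged from 4 libraries of 1 sample each. Per the file headers, the tumor matrices came from version 4.0.0 and the ascites matrix from 3.0.2, while the submitters' processing notes name 3.1.0 and mm10. The labels' protocols name the 10x single cell 3′ v2 kit. B cells and other classes were gated on raw UMIs, summed per library and scaled to CPM. Ratios added 5 CPM and used genes with at least 50 UMIs. Intervals were exact Poisson, Clopper-Pearson or conditional binomial. Shares at equal depth drew 1500 UMIs a cell. Clusters came from scanpy 1.11.5 (2000 variable genes, 15 components, 15 neighbours, Leiden resolution 0.5). The ratio and thinning code was tested on simulated data. Named genes were, per direction, the 12 with the largest ratio, at least 50 CPM, an interval outside 1 and at least 50% of the highest other class, without ribosomal, mitochondrial, immunoglobulin or Y-linked genes and Xist; the 15 set apart from other classes; and the most expressed and most different of each list. Other genes named, such as Cxcr5, were chosen after their values were seen. The members and lists were chosen with earlier results of these data known. Some genes that met these rules are not reported here.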

Additional observations from a re-analysis of the deposited data

Results flagged for a closer look

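In KPCA.B, 18 barcodes met the UMI conditions of the B cell rule but were over the mitochondrial limit and entered no main comparison. In ascites, 5 of 2921 filtered barcodes held a Cd79a UMI, none held an Ms4a1 UMI, and ascites entered no comparison of levels.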

How the results depend on the processing

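No paired analysis was possible because each group is 1 library. The shares of filtered barcodes that were B cells stayed within their intervals under the 5 alternatives of cell filter, B cell rule and doublet scores. The doublet score setting took out only 5 of 532 B cells of KPCA.B and 1 of 60 of KPCA.C. As Scrublet had not worked, that setting is no check on doublets. Genes higher in KPCA.B and in KPCA.C numbered 38 and 42 with 20 CPM added, 421 and 225 at 20 UMIs, 82 and 45 at 100 UMIs, and 79 and 44 in cluster 1 only, a setting chosen after seeing the data. With cells thinned to 1500 UMIs, 58 genes were higher in KPCA.C. Those higher in KPCA.B made 47.5% of the calls with 20 CPM added and 76.3% with thinning. Of 378 values of 24 named genes, 356 stayed within the counting interval of the main value. Another 18 left it in the same direction and 4 reversed. Under 2-fold in either direction lay 8 of the values, from 6 genes. The reversed log2 ratios were 0.26 for Hist1h2ap and 1.97 for Hist1h2ae without the top doublet scores, and 0.24 and 1.95 without the deepest KPCA.C cell, a setting also chosen after seeing the data. That cell held nearly all their UMIs. The immediate early median became 0.012 without it. The B-1-like share was 56.4% of KPCA.C under the stricter B cell rule, 24.4% of KPCA.B at resolution 0.25 and 13.3% of KPCA.C at resolution 1, and the cause was not tested. At 1000 UMIs a cell, 33.3% of KPCA.B held Fcer2a and 58.2% Ighd. At 3000 UMIs these were 53.8% and 75.7%, and Ighd in KPCA.C was 85.4%. Both light chains were called in 61.1% of KPCA.B and 73.3% of KPCA.C at limits of 90% and 10%, and in 22.5% and 30.0% with thinning, added after seeing the data. Depth limits KPCA.A most, with 40552 UMIs in 12 B cells.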
